A study of Mus musculus with 18 samples.

Results

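The 42 genes described here encode the enzymes and carriers by which heart muscle takes fatty acids and ketone bodies apart and feeds the tricarboxylic acid (TCA) cycle, together with 5 transcriptional regulators of that programme. The list was drawn up by gene symbol, each symbol was matched to 1 Ensembl identifier, and it covers 42 of the 30072 genes in the deposited tables. All 42 were among the 15054 genes tested, those with at least 0.23 counts-per-million (CPM) in at least 6 mice. RNA came from the interventricular septum, the muscular wall between the ventricles, of 18 wild-type CD-1 mice, an outbred stock, of both sexes and at least 8 weeks old. The 6 control (ctrl) mice were anesthetized and not irradiated. The 6 mice of the 2wk group and the 6 mice of the 6wk group received a single 25 Gy dose of ionizing radiation (IR) to the heart under isoflurane and were sampled 2 or 6 weeks later. These hearts were uninjured before IR and were exposed whole, which differs from a beam aimed at a scarred region. The comparisons ask which of these genes differ in level at 2 and 6 weeks post-IR, and between those times. Per the paper, controls were littermates matched for age and sex, and mice were randomized to treatment. When the controls were sampled is not stated, nor how ages were matched across sampling times. Ages are given only as at least 8 weeks. Time since IR therefore cannot be told apart from mouse age or sampling date.

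The adult heart draws most of its ATP from long-chain fatty acids. Fatty acids are activated to acyl-CoA, carried into mitochondria as carnitine esters, and shortened by repeated rounds of dehydrogenation, hydration, dehydrogenation and thiolysis. Each round passes electrons to the respiratory chain and releases acetyl-CoA for the TCA cycle. Transcription of the pathway is driven by the nuclear receptors PPAR alpha and the estrogen-related receptors (ERR), with the PGC-1 proteins as their coactivators, and the programme is known to be lower in failing and in fetal heart.

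The 18 libraries held 11522987 to 15501019 counts, so that 3 counts, the lowest level read here as detection, corresponded to 0.194 to 0.260 CPM. CPM values below are on the TMM scale (trimmed mean of M-values), which sets the bulk of genes equal across mice. TMM factors were 0.844 to 0.991 in controls, 0.962 to 1.035 at 2 weeks and 1.038 to 1.129 at 6 weeks, and mitochondrially encoded transcripts took 19.8% to 25.0% of counts in controls and 16.5% to 20.1% at 6 weeks. Heart muscle markers prevailed: 12 cardiomyocyte markers summed to 43092 to 73831 CPM. Tested skeletal muscle markers summed to 38.7 to 96.7 CPM and tested hepatocyte markers to 1.08 to 16.5 CPM. The untested skeletal muscle myosin Myh4 and hepatocyte gene Alb never exceeded 1 count. These markers do not tell septum from other ventricular muscle. Some libraries stood apart on markers of other cells. Atrial markers reached 583 CPM in 2wk replicate 5 and 0.661 to 131 CPM in the others. Control replicate 4 had the highest summed fibroblast (4409.8 CPM) and the highest control macrophage markers (495 CPM), and 6wk replicate 2 had the highest adipocyte markers (42.3 CPM). The Y-linked Ddx3y was at most 0.740 CPM in 9 mice and at least 55.1 CPM in the other 9, and the low mice were replicates 1 to 3 of each group.

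At 6 weeks post-IR, 35 of the 42 genes were lower than in controls and 0 were higher (edgeR quasi-likelihood test, Benjamini-Hochberg adjusted p under 0.05, here called), and all 42 fitted log2 fold changes were below 0, with a median of -0.44 that became 0.055 when mice were scaled on cardiomyocyte markers instead. Of all 15054 genes, 11.5% were called lower and 13.5% higher in that comparison, and their median was -0.019. Fitted changes ranged from -0.69 for Acot2 to -0.091 for Cpt1a. In 8 of the 42 the highest 6wk mouse lay below the lowest control, against 3.43% of all genes. None of the 42 had an absolute log2 fold change above 1, a size that 5.95% of all genes passed together with the adjusted p. At an unadjusted p under 0.05, 38 members were lower and 0 higher, and DESeq2 called 36 lower and 0 higher. Of all 15054 genes, 2656 were lower and 2800 higher at that p, and DESeq2 called 1796 (11.9%) lower and 2158 higher. When each of the 18 mice was left out in turn, 30 of the 35 calls held every time. The call of Eci1 was lost without ctrl replicate 3 or 6, that of Decr1 without ctrl 3 or 6 or 6wk 1 or 3, and that of Etfb without ctrl 3 or 6 or 6wk 3, 5 or 6. The call of Acadl was lost without ctrl 3 or 6 or any 6wk mouse but replicate 4, and that of Ppargc1a without ctrl 2, 3, 5 or 6 or 6wk 1, 3, 5 or 6. Leaving out ctrl 4, 2wk 5 and 6wk 2 together gave 36 genes lower.

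At 2 weeks post-IR, 2 of the 42 genes were called lower, Hadhb and Oxct1, and 0 were called higher. Of all genes, 1.93% were lower and 3.09% higher, and 0.903% passed both the adjusted p and an absolute log2 fold change above 1. Fitted changes were below 0 for 39 members, with a median of -0.18 (all genes -0.0015), and this median turned to 0.081 on the cardiomyocyte marker scaling and 0.069 on transcripts-per-million (TPM) as deposited. In 3 members, Hadhb, Oxct1 and Esrrg, every 2wk mouse lay below every control, against 1.28% of all genes. At an unadjusted p under 0.05, 16 members were lower and 1 higher, and DESeq2 called 6 lower and 0 higher. Of all 15054 genes, 1474 were lower and 1600 higher at that p, and DESeq2 called 526 (3.49%) lower and 703 higher. The calls of Hadhb and Oxct1 depended on the scaling: 0 members were called lower and 4 higher on the marker scaling, 0 and 2 with library size alone, and 0 and 3 on TPM as deposited. Higher calls among all 15054 genes were 3313, 1707 and 2774 under these scalings (TPM as log2(TPM + 1)), and lower calls 37, 82 and 39. The number of members called lower was 4 without ctrl replicate 1, 1 without ctrl 3 and 5 without ctrl 4. The call of Oxct1 was lost without ctrl 3 or ctrl 5. Both comparisons used the same 6 control mice, so they are not independent of each other.

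**Figure D1:**
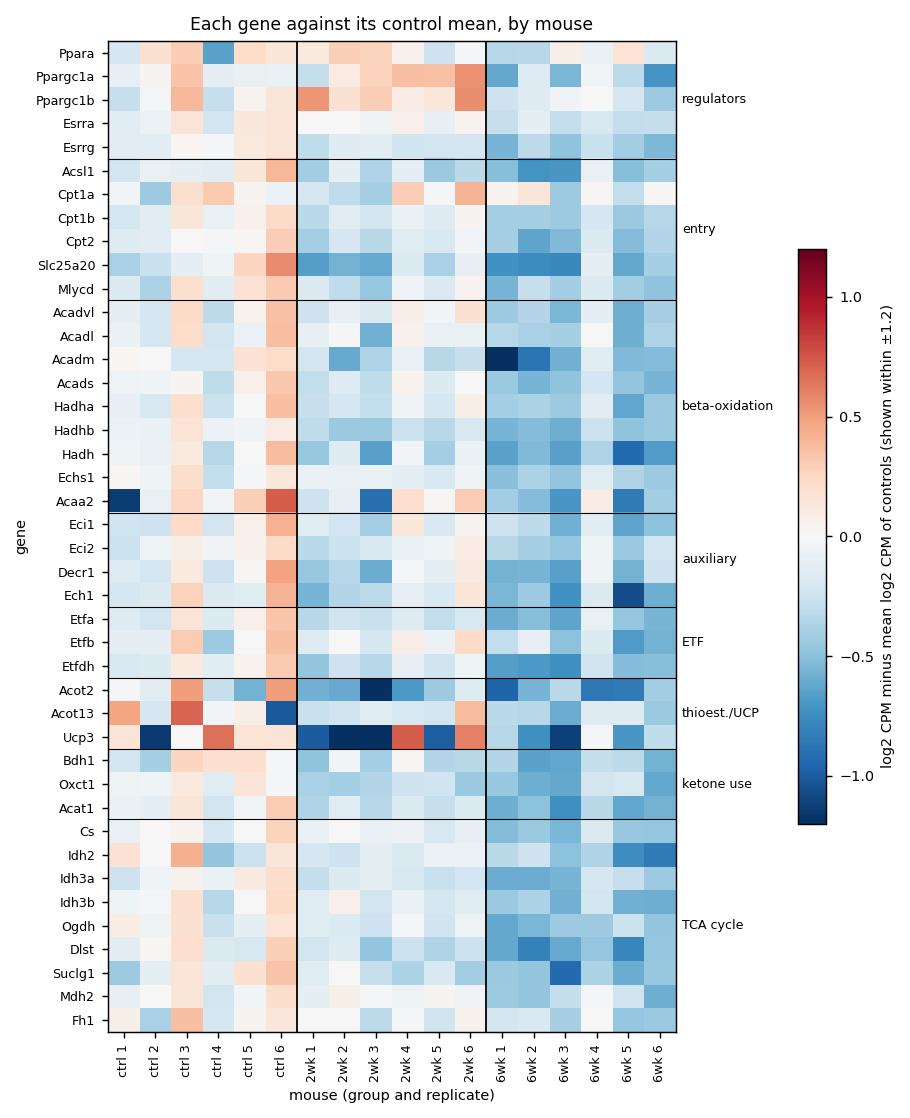
Heat map of log2 CPM of each of the 42 genes (vertical axis, ordered by role) in each of the 18 mice (horizontal axis) minus the mean log2 CPM of the 6 controls for that gene, under TMM scaling. Blue cells, below the control mean, fill most of the 6wk columns, with 6wk replicate 4 the palest of them, and the Ppargc1a and Ppargc1b rows are mostly red at 2 weeks. On the cardiomyocyte marker scaling 12 of the 42 fitted changes at 6 weeks stay below 0.

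The changes were measured in bulk tissue, in which fewer cells of a type and less RNA per cell cannot be told apart. The 12 cardiomyocyte markers moved with the 42 genes: 11 of 12 were called lower at 6 weeks (median -0.46) and 1 of 12 at 2 weeks (median -0.22). Their summed level was 52032 to 73831 CPM in controls, 52588 to 61902 CPM at 2 weeks and 43092 to 53460 CPM at 6 weeks. Summed macrophage markers were 165 to 495 CPM in controls and 429 to 582 CPM at 6 weeks, with 7 of 7 called higher (median 0.91). Of endothelial markers 3 were higher and 2 lower of 8, of fibroblast markers 2 of 7 were lower, of T cell markers 1 of 3 was higher and of erythroid markers 1 of 4 was lower at 6 weeks. The shares of all genes were 13.5% higher and 11.5% lower. In each mouse, the mean log2 CPM of the 42 genes minus that of the markers was -4.26 to -3.95 in controls, -4.18 to -3.91 at 2 weeks and -4.22 to -3.90 at 6 weeks, so the 3 groups overlapped on this difference. Scaled on the markers, 4 of the 42 genes were called higher at 6 weeks (Ppara, Ppargc1b, Esrra and Cpt1a) and 0 lower (edgeR), with 12 of 42 fitted changes below 0 against 42 of 42 under TMM. On that scaling 9294 of all 15054 genes were called higher and 83 lower. This rescaling removes any fall that the markers share with the 42 genes, whether from fewer cells or from less RNA per cell. The part of cell makeup in the lower levels was not tested.

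**Figure D2:**
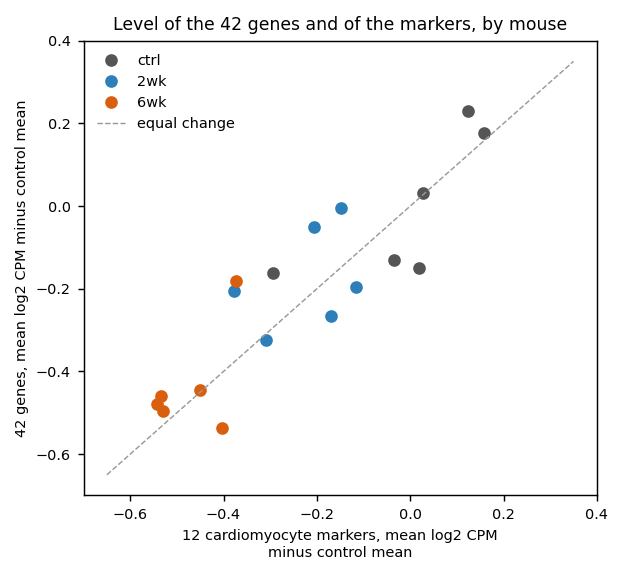
Mean log2 CPM of the 42 genes (vertical axis) against that of 12 cardiomyocyte markers (horizontal axis), each minus its control mean, with 1 point per mouse and a dashed line of equal change. The 6wk mice lie at -0.54 to -0.18 on the vertical axis and -0.54 to -0.37 on the horizontal axis, near the dashed line and below all 6 controls on both axes.

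A change of scaling factor shifts all genes by about the same amount, so the distance between the 42 genes and the bulk of genes is nearly fixed across scalings of the counts and is given as a description. At 6 weeks the members' median minus the median of all genes was -0.42 under TMM, -0.42 with library size alone, -0.41 on the marker scaling and -0.33 on log2(TPM + 1), or -0.21 without the filter on low counts. The same difference was -0.18 under TMM and -0.17 on the marker scaling at 2 weeks, and -0.11 on log2(TPM + 1), or -0.032 without the filter. Library size alone moved the median of all genes at 6 weeks to 0.24, and left 13 members called lower and 0 higher. Among all 15054 genes it called 326 lower and 5494 higher. The marker scaling moved that median to 0.47. TPM values carry no scaling between mice, and on them the median of all genes was 0.29, with 1 member called lower and 1 higher. Among all 15054 genes, 118 were called lower and 7354 higher on log2(TPM + 1). Once the TPM values were scaled by TMM, 34 members were called lower and 0 higher, beside 1458 and 1796 of all genes. Of all calls at 6 weeks, 46.0% were lower under TMM, 5.60% with library size alone, 0.885% on the marker scaling and 1.58% on TPM. At 2 weeks these shares were 38.4%, 4.58%, 1.10% and 1.39%.

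**Figure D3:**
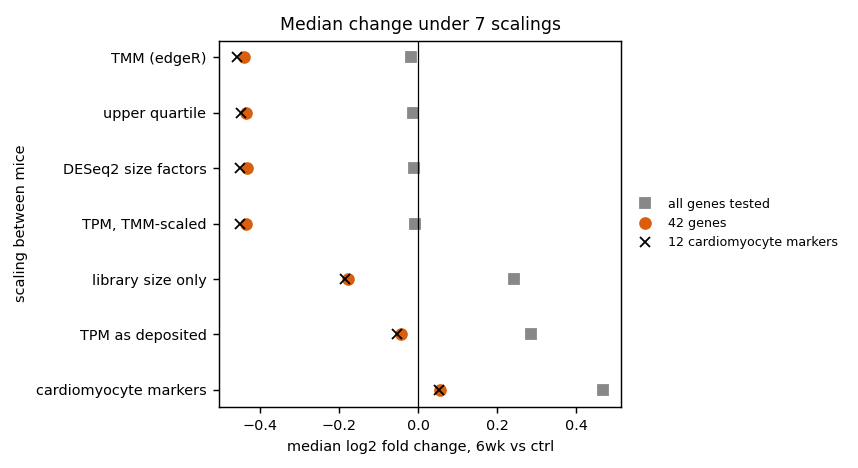
Median log2 fold change at 6 weeks against controls (horizontal axis) of all genes tested (squares), the 42 genes (circles) and 12 cardiomyocyte markers (crosses) under 7 scalings between mice (vertical axis). The 3 medians shift together, from -0.44 to 0.055 for the 42 genes, while circles and crosses stay side by side to the left of the squares.

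Levels within the list spanned a wide range. On TPM, which divides by transcript length and so allows genes to be compared, the highest control means were those of Idh2 (729 ± 159 TPM; SD, n = 6), Ogdh (693 ± 91.2 TPM), Hadhb (675 ± 59.3 TPM) and Ech1 (655 ± 99.2 TPM). These 4 levels differed by less than the spread of Idh2 between mice. The lowest were Ucp3 (7.54 ± 2.85 TPM), Esrrg (12.6 ± 0.728 TPM), Cpt1a (13.6 ± 3.01 TPM), Ppargc1b (13.9 ± 1.96 TPM) and Ppara (14.5 ± 3.15 TPM), so 3 of the 5 regulators were among the 5 lowest of 42. The muscle form of carnitine palmitoyltransferase, Cpt1b, stood at 235 ± 16.5 TPM, above the liver form Cpt1a in every control. Shared sequence limits 4 genes: 79.7% of the 31-base stretches of Cpt1b transcripts also occur in other genes, most with the annotated gene Gm44502, which was not analysed here, and the shares were 49.9% for Etfb, 37.3% for Acot2 and 23.3% for Hadhb. Reads from sequence shared by annotated transcripts are assigned by estimate, and how many were affected in these libraries is not known. Gm13910, which shares the most sequence with Hadhb, was at 0 to 0.781 CPM. Hadhb summed with Gm13910 gave -0.47 ± 0.069 (SE, edgeR adjusted p = 7.7e-05) at 6 weeks. The paralog of Acot2, Acot1, was at 0.722 to 7.59 CPM over the 18 mice, and Acot2 summed with Acot1 gave -0.71 ± 0.19 (SE; adjusted p = 0.011) at 6 weeks.

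Of the 5 regulators, 3 were called lower at 6 weeks (Ppargc1a, Esrra and Esrrg), and the median of the 5 was -0.25 under TMM, 0.019 with library size alone, 0.13 on TPM and 0.25 on the marker scaling. At 2 weeks 0 were called either way by edgeR or DESeq2 except Esrrg, lower by DESeq2, and 1 was lower and 1 higher at an unadjusted p under 0.05. At that p, 1474 of all 15054 genes were lower and 1600 higher. Ppargc1a, which encodes the coactivator PGC-1 alpha (chromosome 5, 51454250 to 51567726, minus strand, GRCm38), was at 75.1 to 103 CPM (median 76.5) in controls, 66.2 to 118 CPM (median 101) at 2 weeks and 49.4 to 79.2 CPM (median 60.3) at 6 weeks. Its 2wk and 6wk ranges overlapped in a few mice, and the highest control, replicate 3, stood apart from the other 5. The fitted log2 change was 0.24 ± 0.13 (SE; adjusted p = 0.329) at 2 weeks, -0.38 ± 0.13 (SE; adjusted p = 0.0422) at 6 weeks and -0.62 ± 0.13 (SE; adjusted p = 0.0156) from 2 to 6 weeks. Ppargc1b, the related coactivator PGC-1 beta, had 46.0 to 73.0 CPM (median 56.3) in controls, 59.3 to 82.1 CPM (median 65.9) at 2 weeks and 41.2 to 55.9 CPM (median 49.3) at 6 weeks. Every 6wk mouse lay below every 2wk mouse, and the log2 change between those times was -0.48 ± 0.11 (SE; adjusted p = 0.0228), while neither time was called against controls (0.29, adjusted p = 0.146 at 2 weeks, and -0.19, adjusted p = 0.247 at 6 weeks). Under library size alone, the marker scaling and TPM, Ppargc1b was called higher at 2 weeks (0.45 to 0.57), and Ppargc1a was called higher under the first and second of these (0.39 and 0.50). At 6 weeks Ppargc1b was called higher on the marker scaling (0.31) and on log2(TPM + 1) (0.29), so its direction then depends on the scaling. Higher calls took 9294 and 7354 of all 15054 genes under these 2 at 6 weeks. At 2 weeks they took 1707 to 3313 genes under the scalings above. Ppargc1a was at 0.15 on TPM as deposited and at -0.088 on TMM-scaled TPM at 2 weeks, called under neither, so its direction then depends on the unit and scaling.

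Esrra encodes ERR alpha, and Esrrg the related receptor ERR gamma. Esrra was at 91.2 to 119 CPM in controls and 100.2 to 111 CPM at 2 weeks, where it was not called under TMM (-0.010, adjusted p = 0.954) but was called higher on the marker scaling (0.25) and on TPM (0.23). It was 87.3 to 98.6 CPM at 6 weeks, where it was called lower under TMM (-0.25, adjusted p = 0.00944) but higher on the marker scaling (0.25). On the marker scaling 3313 of all 15054 genes were called higher at 2 weeks and 9294 at 6 weeks. Esrrg was already apart at 2 weeks, with 46.7 to 57.1 CPM in controls, 41.8 to 46.7 CPM at 2 weeks and 35 to 42.8 CPM at 6 weeks. Its groups against controls did not overlap at either time, although the lowest control and the highest 2wk mouse both round to 46.7 CPM, and the log2 change was -0.22 ± 0.065 (SE; adjusted p = 0.0593) at 2 weeks and -0.43 ± 0.065 (SE; adjusted p = 0.000118) at 6 weeks, turning to 0.058 on the marker scaling. Ppara, the fatty acid-sensing receptor, overlapped between all groups: 25.7 to 49.1 CPM in controls, 33.6 to 48.9 CPM at 2 weeks and 31.6 to 45.0 CPM at 6 weeks, with -0.13 (adjusted p = 0.53) at 6 weeks.

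**Figure D4:**
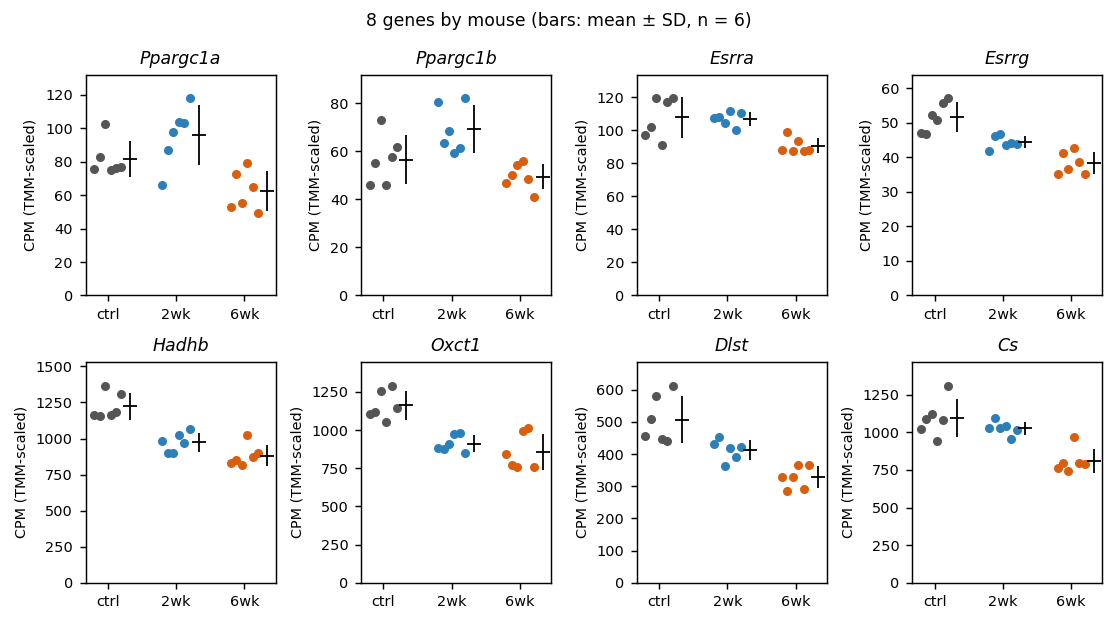
TMM-scaled CPM (vertical axis, from 0) of 8 genes in the 6 mice of each group (points), with the mean and SD beside them. The means of Ppargc1a and Ppargc1b are highest at 2 weeks, where neither was called, and Hadhb and Oxct1 lie below controls at both times, though at 6 weeks their changes on the cardiomyocyte marker scaling are 0.021 and 0.052.

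ERRs bind the response element TCAAGGTCA, and both ERRs and PPARs use its core AGGTCA, which PPAR alpha reads as a pair of direct repeats with 1 base between them. Promoter windows of 300 bases, from 250 before to 50 after each start, were held by RefSeq (GRCm38.p6) for 35 of the 42 genes, and both strands were searched. The full ERR element was in 0 of the 35 members and in 0.466% of 27025 genes, and the repeat in 0 of 35 and 0.048%. The core, which is part of both other motifs, was in 7 of 35 members (20%) and in 18.1% of all genes, so the members' share was near that of promoters at large. The stretches below show that core, or its complement TGACCT, in capitals, in 3 called and 3 uncalled members. Not printed are another match of Ucp3, further upstream, and that of Ogdh, which lies across the start. Each is written 5′ to 3′ on the strand of its gene and lies before the RefSeq start used for its window, that of Acadm at the far edge. The stretch of Cpt1a lies inside the gene as annotated by GENCODE M21 (chromosome 19, 3322334 to 3385733).
Acadm, medium-chain dehydrogenase, chr3:153944875-153944893, minus strand: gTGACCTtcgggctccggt
Acadvl, very-long-chain dehydrogenase, chr11:70015498-70015527, minus strand: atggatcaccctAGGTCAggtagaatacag
Echs1, enoyl-CoA hydratase, chr7:140116487-140116516, minus strand: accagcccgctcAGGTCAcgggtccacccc
Cpt1a, liver carnitine palmitoyltransferase, chr19:3323195-3323224, plus strand: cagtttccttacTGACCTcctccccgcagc
Ucp3, uncoupling protein, chr7:100472935-100472964, plus strand: gaattaggtttcAGGTCAgctggtgcacag
Fh1, fumarase, chr1:175625806-175625835, minus strand: tgtcggaagatcTGACCTcccgcctcttgt

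Of these 6 genes, Acadm, Acadvl and Echs1 were called lower at 6 weeks under TMM (on the marker scaling Acadvl and Echs1 turned to 0.087 and 0.11), and Cpt1a, Ucp3 and Fh1 were not. A match in the window is a description of its letters and was not related to binding.

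Of 6 genes for the entry of fatty acids into mitochondria, 5 were called lower at 6 weeks under TMM. The median of the 6, -0.41, became 0.080 on the marker scaling. Acsl1, the main acyl-CoA synthetase of heart, was at 699.6 to 1086 CPM (median 769) in controls and 499.8 to 776 CPM (median 577) at 6 weeks, a log2 change of -0.49 ± 0.12 (SE; adjusted p = 0.0046), and 6wk replicate 4 alone overlapped the controls. Cpt1b (chromosome 15, 89416405 to 89425863, minus strand), which makes the acylcarnitine at the outer membrane, was at 584 to 796 CPM (median 671) in controls, 543 to 692 CPM (median 612) at 2 weeks and 499 to 590.3 CPM (median 514) at 6 weeks. Its change at 6 weeks was -0.38 ± 0.077 (SE; adjusted p = 0.00146), and 0.12 on the marker scaling. The carrier Slc25a20, which brings acylcarnitine across the inner membrane, spread widely among controls (62.2 to 121 CPM) and was at 47.9 to 75.3 CPM at 6 weeks (-0.58, adjusted p = 0.0103). Cpt2, which returns the acyl group to CoA inside, was at 183 to 249 CPM in controls and 132 to 182 CPM at 6 weeks without overlap (-0.43, adjusted p = 0.00126). Mlycd, which removes the Cpt1 inhibitor malonyl-CoA, changed by -0.40 (adjusted p = 0.0119). Cpt1a did not pass, with 41.2 to 69.6 CPM in controls, 41.4 to 61.6 CPM at 6 weeks and -0.091 (adjusted p = 0.703). At 2 weeks 0 of the 6 were called by edgeR or DESeq2, with 3 lower and 0 higher at an unadjusted p under 0.05. At that p, 1474 of all 15054 genes were lower and 1600 higher.

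In the beta-oxidation spiral, 8 of 9 genes were called lower at 6 weeks and 1 at 2 weeks, and the 6-week median of -0.46 turned to 0.037 on the marker scaling. Hadhb, the thiolase subunit of the trifunctional protein (chromosome 5, 30155248 to 30184593, plus strand), had the smaller adjusted p of the 2 genes called at 2 weeks. It was at 1153 to 1367 CPM (median 1173) in controls, 898 to 1068 CPM (median 976) at 2 weeks and 815 to 1021 CPM (median 861) at 6 weeks. All 12 irradiated mice lay below all 6 controls, and the log2 change was -0.33 ± 0.068 (SE; adjusted p = 0.0103) at 2 weeks and -0.47 ± 0.069 (SE; adjusted p = 7.78e-05) at 6 weeks, against -0.073 and 0.021 on the marker scaling, both uncalled. Its partner subunit Hadha, which carries the hydratase and dehydrogenase, overlapped controls at 2 weeks (951 to 1460.1 CPM in controls, 926 to 1188 CPM at 2 weeks, 736 to 1038 CPM at 6 weeks), with fitted values of -0.17 (adjusted p = 0.38) at 2 weeks and -0.41 (adjusted p = 0.00662) at 6 weeks. Whether Hadha and Hadhb differ in their change was not tested.

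The 4 chain-length acyl-CoA dehydrogenases, which take the first step of each round, were all called lower at 6 weeks under TMM, of which Acadm alone kept a change below 0 on the marker scaling (-0.13). Acadm was at 629 to 848 CPM (median 733) in controls and 309 to 657 CPM (median 495) at 6 weeks, the widest 6wk spread of the 4, and changed by -0.62 ± 0.14 (SE; adjusted p = 0.00261). The changes of the others were -0.42 (adjusted p = 0.00889) for Acadvl, -0.35 (adjusted p = 0.0358) for the long-chain enzyme Acadl and -0.46 (adjusted p = 0.000919) for the short-chain enzyme Acads. Hadh, the 3-hydroxyacyl-CoA dehydrogenase for short chains, was at 96.8 to 159 CPM in controls, 78.5 to 119.9 CPM at 2 weeks and 64.7 to 95.5 CPM at 6 weeks. The 6wk mice did not overlap controls, and its -0.64 ± 0.12 (SE; adjusted p = 0.000745) was the lowest fitted value of the spiral (-0.14 on the marker scaling). Echs1, the short-chain hydratase, changed by -0.39 (adjusted p = 0.000866). Acaa2, the thiolase for medium chains, varied from 155 to 561 CPM in controls and was not called (-0.54, adjusted p = 0.112), but was without ctrl replicate 1, its lowest control (adjusted p = 0.0153).

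**Figure D5:**
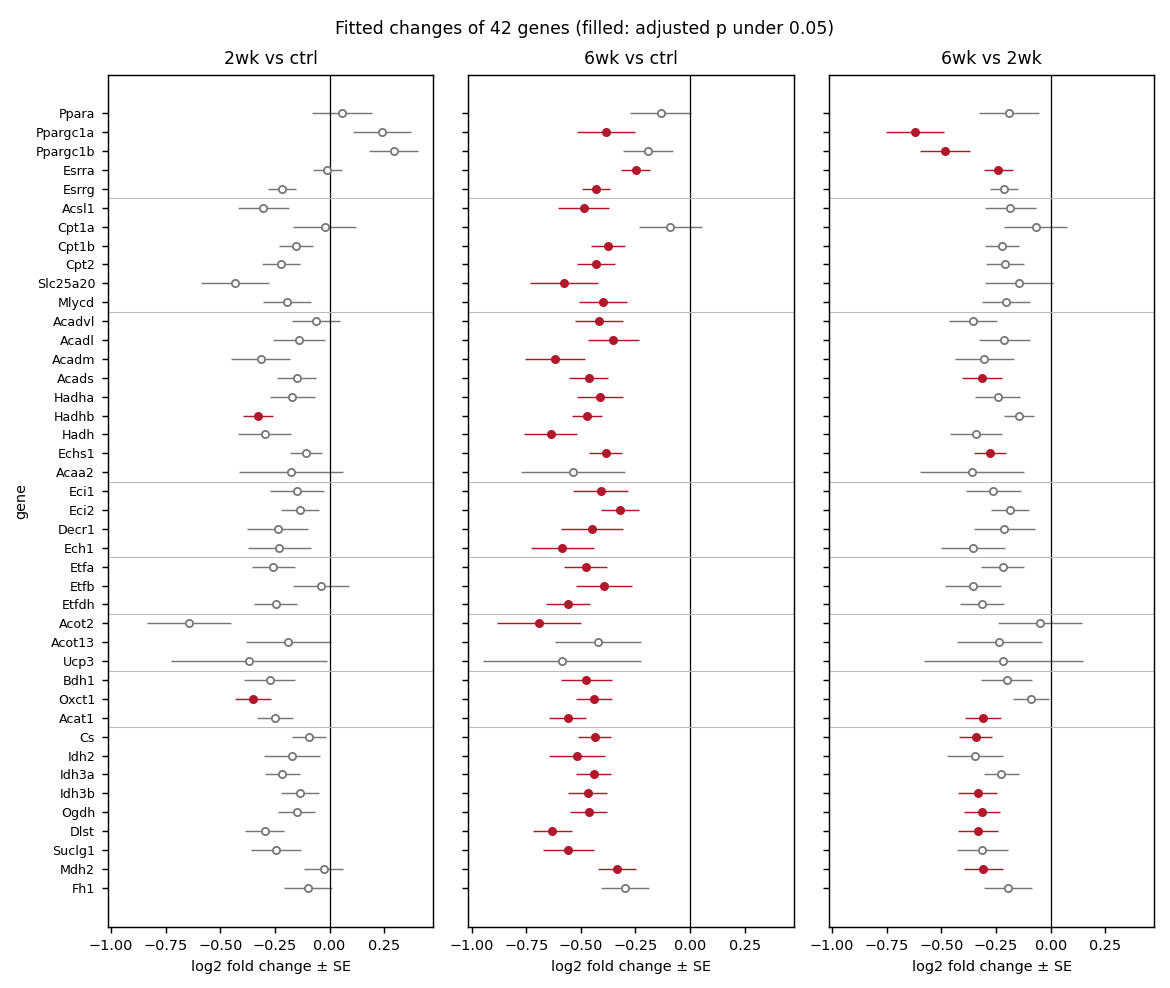
Fitted log2 fold change (horizontal axis) with its SE for each of the 42 genes (vertical axis, ordered by role) at 2 weeks against controls, 6 weeks against controls, and 6 against 2 weeks, under TMM scaling, filled where called. Filled points number 2, 35 and 11, all of them left of 0, and on the cardiomyocyte marker scaling 12 of the 42 values of the middle panel stay below 0.

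The auxiliary enzymes that prepare double bonds for the spiral were called lower at 6 weeks in 4 of 4 cases, with a median of -0.43, and 0.075 on the marker scaling. Ech1, a dienoyl-CoA isomerase, was at 623 to 946 CPM (median 642) in controls and 342 to 634 CPM (median 482) at 6 weeks (-0.58, adjusted p = 0.00599). Decr1, the dienoyl-CoA reductase, changed by -0.45 (adjusted p = 0.0247), and the enoyl-CoA isomerases Eci1 and Eci2 by -0.41 (adjusted p = 0.0207) and -0.32 (adjusted p = 0.0113). At 2 weeks 0 of 4 were called by edgeR or DESeq2, and 0 passed an unadjusted p under 0.05.

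The genes of the electron transfer flavoprotein, which hands electrons from the dehydrogenases to ubiquinone, were called lower in 3 of 3 cases at 6 weeks under TMM. Their median of -0.48 became 0.019 on the marker scaling. Etfdh, the membrane dehydrogenase, was at 363 to 516 CPM in controls, 299 to 399.7 CPM at 2 weeks and 249 to 351 CPM at 6 weeks. Its 6wk mice did not overlap controls (-0.56 ± 0.1 SE, adjusted p = 0.000478), and on the marker scaling its change was -0.061. The soluble subunits Etfa and Etfb changed by -0.48 (adjusted p = 0.00149) and -0.39 (adjusted p = 0.0291).

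Among the genes of the thioesterases and the uncoupling protein, 1 of 3 was called lower at 6 weeks under TMM, beside 11.5% of all genes. With 3 genes, this count is not read as a trait of the group. Acot2, a mitochondrial acyl-CoA thioesterase, was at 37.9 to 79.3 CPM (median 53.3) in controls, 22.3 to 50.3 CPM (median 37.3) at 2 weeks and 28.9 to 44.9 CPM (median 34.7) at 6 weeks. The middle values of the irradiated groups were close to each other and below the lowest control, though the ranges overlapped. Its change was -0.64 ± 0.19 (SE; adjusted p = 0.0585) at 2 weeks and -0.69 ± 0.19 (SE; adjusted p = 0.012) at 6 weeks, and -0.17 on the marker scaling. Acot13 was not called (-0.42, adjusted p = 0.127), but was without ctrl replicate 6, its lowest control (adjusted p = 0.0124). Ucp3, an inner-membrane carrier induced by fatty acids, was the most variable member, with 7.33 to 25.8 CPM in controls, 5.94 to 26.9 CPM at 2 weeks and 7.51 to 16.1 CPM at 6 weeks (-0.59 ± 0.36 SE, adjusted p = 0.263).

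Genes for ketone body use were called lower in 3 of 3 cases at 6 weeks and 1 of 3 at 2 weeks under TMM. On the marker scaling the 6-week median of -0.48 was 0.0077. Oxct1, the CoA transferase that commits ketone bodies to oxidation (chromosome 15, 4026383 to 4155344, plus strand), was at 1050.5 to 1292 CPM (median 1132) in controls, 851 to 981 CPM (median 895) at 2 weeks and 757 to 1013 CPM (median 807) at 6 weeks. Like Hadhb, it separated all 12 irradiated mice from all controls. The log2 change was -0.35 ± 0.082 (SE; adjusted p = 0.0197) at 2 weeks and -0.44 ± 0.083 (SE; adjusted p = 0.000725) at 6 weeks, with -0.093 and 0.052 on the marker scaling, both uncalled, and the step from 2 to 6 weeks was -0.090 (adjusted p = 0.58). Acat1, the acetoacetyl-CoA thiolase (chromosome 9, 53580522 to 53610382, minus strand), was at 341 to 492 CPM in controls, 311 to 360.2 CPM at 2 weeks and 238 to 317 CPM at 6 weeks. Its 6wk mice lay below all controls (-0.56 ± 0.084 SE, adjusted p = 0.000107), and it stayed below 0 on the marker scaling (-0.059). Bdh1, which oxidizes 3-hydroxybutyrate, changed by -0.48 (adjusted p = 0.00562) at 6 weeks.

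Of the 9 TCA cycle genes, 8 were called lower at 6 weeks under TMM, and their median of -0.46 was 0.041 on the marker scaling. At 2 weeks edgeR called 0 of 9, with 3 lower and 0 higher at an unadjusted p under 0.05, and DESeq2 called Dlst lower. At that unadjusted p, 1474 of all 15054 genes were lower and 1600 higher. Dlst, the succinyltransferase core of the oxoglutarate dehydrogenase complex (chromosome 12, 85110833 to 85134845, plus strand), had the smallest adjusted p of the 42 genes. It was at 440.1 to 613 CPM (median 484) in controls, 364 to 452 CPM (median 421) at 2 weeks and 286 to 365 CPM (median 329.9) at 6 weeks. No 6wk mouse reached the lowest control, and the change was -0.30 ± 0.09 (SE; adjusted p = 0.0634) at 2 weeks, -0.63 ± 0.09 (SE; adjusted p = 7.03e-05) at 6 weeks and -0.12 at 6 weeks on the marker scaling. Ogdh, the first subunit of the same complex (chromosome 11, 6291633 to 6356642, plus strand) and the most counted of the 42, was at 2144 to 2933 CPM (median 2608) in controls, 2171 to 2563 CPM (median 2319) at 2 weeks and 1692 to 2166 CPM (median 1883) at 6 weeks, and changed by -0.46 ± 0.084 (SE; adjusted p = 0.000516).

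Citrate synthase, Cs, which starts the cycle, was at 942 to 1311 CPM (median 1086) in controls, 956 to 1092 CPM (median 1028) at 2 weeks and 743 to 968 CPM (median 791) at 6 weeks. The 2wk mice lay inside the control range, and only 6wk replicate 4 overlapped controls at 6 weeks (-0.44 ± 0.076 SE, adjusted p = 0.000395; 0.061 on the marker scaling). The NADP-linked isocitrate dehydrogenase Idh2 was at 872 to 1628 CPM in controls and 674 to 1024 CPM at 6 weeks (-0.52, adjusted p = 0.00576). Idh3a and Idh3b, subunits of the NAD-linked enzyme, changed by -0.44 (adjusted p = 0.000584) and -0.47 (adjusted p = 0.000771). Suclg1, of succinyl-CoA ligase, changed by -0.56 (adjusted p = 0.00176), and malate dehydrogenase Mdh2 by -0.34 (adjusted p = 0.00849). Mdh2 stood at -0.027 (adjusted p = 0.898) at 2 weeks, but was called higher then on the marker scaling (0.24), as were 3313 of all 15054 genes. Fh1 missed the threshold (-0.30 ± 0.11 SE, adjusted p = 0.0559) in edgeR, passed it in DESeq2, and passed it in edgeR without ctrl replicate 2, ctrl 4 or 6wk 4, with adjusted p from 0.0159 to 0.0333.

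Between 2 and 6 weeks, 11 of the 42 genes were called lower and 0 higher (edgeR), and all 42 fitted changes were below 0, with a median of -0.24 under TMM against -0.0034 on the marker scaling. Of all genes, 2.01% were lower, 3.31% higher, and 1.14% passed with an absolute log2 fold change above 1. At an unadjusted p under 0.05, 28 members were lower and 0 higher, and DESeq2 called 14 lower and 0 higher. Of all 15054 genes, 1505 were lower and 1705 higher at that p, and DESeq2 called 447 (2.97%) lower and 717 higher. Groups did not overlap in 4 members (Ppargc1b, Esrra, Idh2 and Ogdh), against 1.27% of all genes. The called genes were the regulators Ppargc1a, Ppargc1b and Esrra (-0.24, adjusted p = 0.0432), the spiral enzymes Acads (-0.31, adjusted p = 0.0478) and Echs1 (-0.28, adjusted p = 0.0367), and the ketone thiolase Acat1 (-0.31, adjusted p = 0.0388). The other five were TCA cycle genes: Cs (-0.34, adjusted p = 0.0179), Idh3b (-0.33, adjusted p = 0.0361), Ogdh (-0.31, adjusted p = 0.0367), Dlst (-0.33, adjusted p = 0.0389) and Mdh2 (-0.31, adjusted p = 0.0469). Only Ppargc1a and Cs kept their call whichever of the 18 mice was left out. The count was 3 without 2wk replicate 1, 2 or 4 or 6wk replicate 1 or 3, 4 without 6wk replicate 5, 6 without 6wk replicate 2, and 2 without 2wk replicate 6 or 6wk replicate 6. On the marker scaling 1 member was called lower, and 3 were with library size alone. Under these scalings 0.399% and 0.691% of all genes were called lower.

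Genes that adjoin the list gave the following counts at 6 weeks under TMM, beside 11.5% of all genes called lower and 13.5% higher. Other TCA cycle enzymes were lower in 6 of 9 cases (median -0.40; 0.091 on the marker scaling), led by the succinate dehydrogenase anchor Sdhd (-0.43, adjusted p = 7.81e-05), the succinyl-CoA ligase subunit Sucla2 (-0.56, adjusted p = 0.000753) and the shared dehydrogenase Dld (-0.40, adjusted p = 0.000786). Genes for pyruvate dehydrogenase and pyruvate entry were lower in 8 of 12 cases (median -0.40, and 0.079 on the marker scaling), with Dlat at -0.47 (adjusted p = 0.000328), the pyruvate carrier Mpc2 at -0.51 (adjusted p = 0.000567) and Pdhb at -0.78 (adjusted p = 0.000761). Nuclear-encoded respiratory chain subunits were lower in 14 of 18 (median -0.40; 0.10), with Uqcrfs1 of complex III at -0.57 (adjusted p = 6.79e-05), Cyc1 at -0.43 (adjusted p = 0.000392) and Cox8b of complex IV at -0.40 (adjusted p = 0.000455). Transcripts of proteins encoded in the mitochondrial genome were lower in 12 of 13 cases. Their median of -0.65 stayed below 0 on the marker scaling (-0.15). They included mt-Nd4l (-0.65, adjusted p = 0.000298), mt-Atp6 (-0.70, adjusted p = 0.000455) and mt-Nd1 (-0.64, adjusted p = 0.000856). On the marker scaling the fitted values of Sdhd, Dld, Dlat, Cyc1 and Cox8b turned above 0. Under TMM, lower calls were therefore found among pyruvate and respiratory chain genes as well as among those for fat and ketone bodies.

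Upstream of the carnitine shuttle, genes for fatty acid uptake and storage were lower in 7 of 11 cases (median -0.37, and 0.12 on the marker scaling), with the triglyceride synthase Dgat2 at -0.62 (adjusted p = 0.00158), the fatty acid transporter Slc27a1 at -0.55 (adjusted p = 0.00362) and the lipase Lipe at -0.56 (adjusted p = 0.00868). Genes for peroxisomal oxidation were lower in 6 of 12 cases (median -0.34, and 0.15 on the marker scaling), with carnitine acetyltransferase Crat at -0.50 (adjusted p = 0.000215), the peroxisomal transporter Abcd2 at -0.91 (adjusted p = 0.000229) and the bifunctional enzyme Hsd17b4 at -0.36 (adjusted p = 0.00308). Of 16 transcription factors, coregulators and deacetylases that work with or against the 5 regulators, 6 were lower and 1 was higher (median -0.20; 0.29). Those lower included the deacetylase Sirt3 (-0.43, adjusted p = 0.000312), the mitochondrial genome factor Tfam (-0.34, adjusted p = 0.000887) and the third ERR, Esrrb (-0.43, adjusted p = 0.00188). The 1 higher, named after its value was seen, was Pprc1, a coactivator of the PGC-1 family (0.35, adjusted p = 0.0126). On the marker scaling the fitted values of Hsd17b4, Sirt3, Tfam and Esrrb turned above 0.

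Of 10 other known targets of PPARs, 8 were tested. At 6 weeks 2 were higher and 1 was lower (12.5%), beside 13.5% and 11.5% of all genes. With so few genes, these counts are not read as a trait of the list. Ucp2, an uncoupling protein also found in immune cells, was at 38.0 to 71.5 CPM (median 55.9) in controls, 58.9 to 88.0 CPM (median 70.9) at 2 weeks and 87.5 to 117 CPM (median 96.1) at 6 weeks. Its 6wk mice lay above all controls, with a change of 0.86 ± 0.13 (SE; adjusted p = 0.000115) and an increase under all 9 scalings and models compared. Angptl4, an inhibitor of lipoprotein lipase, was higher at a low level, with 0.917 to 4.37 CPM in controls and 2.15 to 7.52 CPM at 6 weeks (1.22, adjusted p = 0.0435), and the mitochondrial carrier Slc25a34 was lower (-0.34, adjusted p = 0.0428; 0.17 on the marker scaling). Among 13 further acyl-CoA synthetases and dehydrogenases 1 was higher and 1 lower (7.69%), both shares below those of all genes. Acsl5, a synthetase more typical of gut and liver, was at 10.3 to 13.4 CPM in controls and 14.6 to 22.0 CPM at 6 weeks (0.66 ± 0.10 SE, adjusted p = 0.000184), without overlap, while Acad11 changed by -0.55 (adjusted p = 0.00053). Summed macrophage markers were higher beside Ucp2 and Acsl5, as given above, and their part in those 2 genes was not tested. Of 15 circadian clock and clock output genes, which set a daily rhythm in these pathways, 1 was lower, Hlf (-0.79, adjusted p = 0.00223), and 0 higher by edgeR, with 5 lower and 0 higher at an unadjusted p under 0.05. The edgeR share of lower calls, 6.67%, was below the 11.5% of all genes. At the unadjusted p, 2656 of all 15054 genes were lower and 2800 higher.

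At 2 weeks the adjoining lists gave fewer calls under TMM, beside 1.93% of all genes called lower and 3.09% higher. Lower calls were 5 of 18 among nuclear respiratory chain subunits and 3 of 12 in pyruvate entry. There were 3 of 13 among transcripts of mitochondrially encoded proteins (8 by DESeq2, which called 3.49% of all genes lower). Genes for uptake and storage had 2 of 11, and those for peroxisomal oxidation 2 of 12. The lower calls included Dlat (-0.29, adjusted p = 0.0397), Dgat2 (-0.55, adjusted p = 0.0197) and Abcd2 (-0.70, adjusted p = 0.0104), of which the first was at -0.033, the second at -0.28 and the last at -0.45 on the marker scaling.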

How the data were processed

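The authors deposited estimated counts per gene and TPM for 18 mice, made with Salmon 1.0 and imported at gene level (reads called with CASAVA 1.8; GRCm38, Ensembl genes), per the labels and the study's methods. TPM as deposited has no scaling between mice. The expected counts were rounded to whole numbers here. Identifiers were matched to symbols with GENCODE M21 and gene name tables (29301 of 30072 with a symbol). Groups came from the labels, which give no sex for single mice. Genes reaching 0.23 CPM in 6 or more mice were fitted in 1 model of 3 groups with edgeR 4.0.16 (quasi-likelihood, TMM), in R 4.3.3, and p-values were adjusted over all 15054 genes in each comparison. The model was tested on simulated data. The study's methods used limma with weights (limma 3.58.1 here), which was an alternative, as was DESeq2 1.42.0; others were 6 scalings or filters, TPM with pseudocounts of 1 and 0.1, a replicate block, a Y-linked covariate and leaving out each mouse. No pairing of mice was used. Totals of 11522987 to 15501019 counts set the precision, and the floors cover counting error only. Promoter windows and 31-base matches came from RefSeq and GENCODE M21 sequences.

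All members were named, and of each further list the genes called against controls with the smallest adjusted p, up to 3. The 42 genes, the further lists and the markers were chosen with earlier results of these data known, so no test of a list is given. All columns of the deposited tables were used.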

Additional observations from a re-analysis of the deposited data

Results flagged for a closer look

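Within groups of 6 mice, 8 of 126 gene and group combinations held a mouse whose gap to its nearest neighbour exceeded Dixon's 95% limit as a share of the group's range, where chance gives about 1 in 20. Control replicate 3 was high for Ppargc1a (103 CPM against 82.7 CPM for the next mouse; ratio 0.723), and control replicate 6 for Cpt2 (249 against 207 CPM; 0.636). Replicate 3 of the 2wk group was low for Acadl (96.6 against 135 CPM; 0.728), and replicate 6 of that group was high for Acot13 (147 against 102 CPM; 0.848). Replicate 4 of the 6wk group was the high mouse for Acadl (145 against 114 CPM; 0.629), Acads (134 against 116 CPM; 0.685), Etfa (355 against 274 CPM; 0.727) and Cs (968 against 799 CPM; 0.753). That mouse also had the highest summed level of the 42 genes in its group, 15849 CPM against 12712 to 13239 CPM in the others, and the highest summed cardiomyocyte markers, 53460 against 43092 to 48663 CPM.

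The changes against controls at 6 and at 2 weeks differed for 11 genes by the test of 6wk against 2wk (edgeR, adjusted p under 0.05). The log2 differences were -0.62 for Ppargc1a, -0.48 for Ppargc1b, -0.24 for Esrra, -0.31 for Acads, -0.28 for Echs1, -0.31 for Acat1, -0.34 for Cs, -0.33 for Idh3b, -0.31 for Ogdh, -0.33 for Dlst and -0.31 for Mdh2. Ppargc1a and Ppargc1b were the 2 of these with fitted values above 0 at 2 weeks (0.24 and 0.29).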

How the results depend on the processing

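With library size alone the counts of members called lower were 0 at 2 weeks (2 higher), 13 at 6 weeks and 3 from 2 to 6 weeks, with medians of -0.027 at 2 weeks and -0.18 at 6 weeks. Scaled on cardiomyocyte markers they were 0 (4 higher), 0 (4 higher) and 1, with medians of 0.081, 0.055 and -0.0034. On log2(TPM + 1), with or without the filter, they were 0 (3 higher), 1 (1 higher) and 0, with medians of 0.069, -0.045 and -0.083; log2(TPM + 0.1) gave the same counts and 0.071, -0.045 and -0.084. At 6 weeks library size alone, the marker scaling and log2(TPM + 1) called 5494, 9294 and 7354 of all 15054 genes higher. At 2 weeks these settings called 1707, 3313 and 2774 higher. TMM-scaled TPM, chosen after seeing the data, gave 1 member lower at 2 weeks, and the other 2 alternatives so chosen (3 libraries left out together, and shared-sequence partners summed) kept every count within 1.5 times. DESeq2 gave 6 lower at 2 weeks, and an adjusted p under 0.10 also gave 6; requiring an absolute log2 fold change above 1 left 0 in each comparison. The replicate block gave 3 lower at 2 weeks, 33 at 6 weeks and 4 from 2 to 6 weeks, while same-numbered mice did not deviate together (r from -0.083 to 0.106 over 18 pairs) and 3 of 18 mice correlated best with a mouse of their own number. Upper-quartile scaling, TMM without mitochondrial genes, limma with weights and the literal filter gave 2 lower at 2 weeks and 35 at 6 weeks, and the Y-linked covariate 3 and 35. Leaving out 1 mouse gave 1 to 5 lower at 2 weeks, 30 to 36 at 6 weeks and 2 to 16 from 2 to 6 weeks (medians -0.22 to -0.13, -0.49 to -0.39 and -0.31 to -0.23), and 0 higher throughout.

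Single genes turned as follows. At 6 weeks on the cardiomyocyte marker scaling, log2 changes above 0, beside those of Acot13 and Fh1, which were called under neither scaling, were Ppara 0.38, Ppargc1a 0.10, Ppargc1b 0.31, Esrra 0.25, Esrrg 0.058, Acsl1 0.0097, Cpt1a 0.38, Cpt1b 0.12, Cpt2 0.062, Mlycd 0.098, Acadvl 0.087, Acadl 0.15, Acads 0.037, Hadha 0.090, Hadhb 0.021, Echs1 0.11, Eci1 0.093, Eci2 0.17, Decr1 0.057, Etfa 0.019, Etfb 0.11, Bdh1 0.0077, Oxct1 0.052, Cs 0.061, Idh3a 0.054, Idh3b 0.034, Ogdh 0.041 and Mdh2 0.16. On log2(TPM + 1), with or without the filter, they were Ppargc1b 0.29, Esrra 0.13, Esrrg 0.017, Cpt1b 0.011, Acadl 0.077, Hadha 0.0021, Eci2 0.089, Etfb 0.011 and Mdh2 0.054; on log2(TPM + 0.1) Ppargc1b 0.31, Esrra 0.14, Esrrg 0.017, Cpt1b 0.011, Acadl 0.077, Hadha 0.0021, Eci2 0.091, Etfb 0.011 and Mdh2 0.054. On TMM-scaled TPM, Ppargc1a was at -0.088 at 2 weeks, uncalled. With library size alone Esrra was at 0.019. At 2 weeks the called values that turned above 0 were Esrra 0.25 and Mdh2 0.24 on the marker scaling, Esrra 0.23 and Mdh2 0.22 on log2(TPM + 1) and Esrra 0.23 and Mdh2 0.22 on log2(TPM + 0.1). The called values of Ppargc1a and Ppargc1b, above 0 under TMM too, are given with the regulators. Each of these settings but TMM-scaled TPM moves the median of all genes above 0. On TMM-scaled TPM that median was 0.0042 at 2 weeks and -0.0073 at 6 weeks. The cause of these turns was not tested.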
